A study of Homo sapiens with 4 samples.

Results

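The genes described here encode the machinery that brings new proteins into the endoplasmic reticulum, folds them, disposes of those that misfold, and senses folding stress. The 55 genes were matched by current gene symbol, from identifiers with their version removed, to files that hold 11650 genes. TXNDC5, another isomerase, was left off because it overlaps a readthrough gene. Of the 55, 54 had values, and DERL3, a degradation channel protein of secretory cells, had none and was not analysed here. The list holds 24 folding genes, 13 translocation genes, 10 degradation genes (9 with values) and 8 sensors and their regulators.

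The cells were 92.1, an established line from a uveal melanoma, a pigment cell tumour of the eye. RNA was sequenced in 2 libraries of a resistant derivative (titled Res) and 2 libraries of the parental line (titled Ctrl). The labels do not name the agent the derivative resists, the way it was selected, or whether it is a single clone. The cell line label counts up from 92.1 to 95.1 over the 4 samples, while each title names 92.1, and the titles were followed. Whether replicate libraries were grown as separate cultures is not stated, so the p-values reflect variation among these libraries only, possibly technical.

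Proteins bound for secretion or for membranes enter the endoplasmic reticulum through the Sec61 channel, lose their signal peptide and receive sugar chains. Chaperones of the lumen such as BiP (HSPA5), lectins such as calnexin and calreticulin, and disulphide isomerases then fold them. Chains that do not fold are sent back to the cytosol and degraded. When unfolded protein accumulates, the sensors IRE1 (ERN1), PERK (EIF2AK3) and ATF6 start the unfolded protein response, in which ATF6 and spliced XBP1 raise transcription of chaperone and degradation genes. Pigment cells rely on this route because the melanin enzymes and melanosome proteins are glycosylated membrane proteins.

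Levels are in FPKM, a fragment count divided by transcript length and by library size, which allows comparison between genes. Deposited FPKM summed to 292736 and 293481 in resistant libraries, against 282602 and 283387 in parental libraries, and the read depth behind them is unknown. Resistant replicates differed more (SD between replicates 0.378) than parental ones (0.266), on the log2(FPKM + 1) scale over the 10271 genes averaging at least 1 FPKM. All 7 pigment cell markers had values, with a summed level of 2992 and 2260 FPKM in resistant libraries, against 2584 and 2304 FPKM in parental libraries, most of it from TYRP1 (2143 and 1514 FPKM, against 1490 and 1484 FPKM). The sum hides lower members: DCT had 0.486 and 0.517 FPKM in resistant libraries, against 4.88 and 5.46 FPKM in parental libraries (log2 fold change -2.04, limma adjusted p = 0.0544), and SOX10 had 54.9 and 54.3 FPKM, against 91.8 and 73.3 FPKM. MITF, at 9.64 and 31.8 FPKM in resistant libraries, against 35.3 and 37.4 FPKM in parental libraries, was also lower without overlap. Markers of other cell types gave smaller sums or had no values. Of 5 epithelial markers 3 had values and summed to 9.39 and 17.7 FPKM in resistant libraries, against 3.12 and 3.91 FPKM in parental libraries, and of 3 leukocyte markers 2 (CD68 and LCP1) had values and summed to 13.2 and 10.7 FPKM, against 32.6 and 27.4 FPKM, while PTPRC had none. Of 6 fibroblast markers 3 had values and summed to 9.59 and 7.34 FPKM in resistant libraries, against 5.20 and 6.01 FPKM in parental libraries. A gene seems to be listed only where its larger group mean is about 0.5 FPKM or more. KRT8, KRT19 and COL1A2 were below that in both parental libraries, so they have values only through the resistant group. The epithelial and fibroblast sums therefore do not compare the groups on equal terms. None of the 3 endothelial markers had a value, and of 5 plasma cell markers only SDC1 did, at 15.2 and 19.5 FPKM in resistant libraries, against 18.2 and 15.9 FPKM in parental libraries. The part of these markers in the results below was not tested. In bulk RNA, fewer cells of a type and less RNA per cell cannot be told apart.

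Promoter sequence is shown because several of the listed genes are textbook targets of the stress response, and the results are set beside it further on. The endoplasmic reticulum stress element, which ATF6 binds together with the factor NF-Y, reads CCAAT, then any 9 bases, then CCACG, and was searched on both strands from 250 bases before to 50 after the start of each gene. Promoters were found for 51 of the 55 genes in a RefSeq table on GRCh38.p14. The element was present in 8 of the 51 (15.7%), against 22 of 27305 promoters in the whole table (0.0806%). The 8 were HSPA5, HSP90B1, CALR, CANX, CRELD2 and ERO1B among 23 folding genes with a promoter, SERP1 among 12 translocation genes, and XBP1 among 8 sensors and regulators, with none among 8 degradation genes. Only HSP90B1 had more than 1 match. Below, each match is given with the bases around it, 5′ to 3′ on the strand of the gene, with the outer pentamers of the element in capitals. A match on the other strand reads CGTGG, 9 bases, ATTGG.
HSPA5 (chr9:125241371-125241429, minus strand): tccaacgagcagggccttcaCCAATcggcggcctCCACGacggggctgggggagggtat
HSP90B1 far match (chr12:103930196-103930254, plus strand): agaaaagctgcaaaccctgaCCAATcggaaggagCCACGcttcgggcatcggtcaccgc
HSP90B1 near match (chr12:103930301-103930359, plus strand): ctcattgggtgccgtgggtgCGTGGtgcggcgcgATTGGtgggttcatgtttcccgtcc
CALR (chr19:12938364-12938422, plus strand): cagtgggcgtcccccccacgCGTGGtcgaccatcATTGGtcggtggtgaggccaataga
CANX (chr5:179698758-179698816, plus strand): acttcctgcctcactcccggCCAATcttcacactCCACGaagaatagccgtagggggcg
CRELD2 (chr22:49918534-49918592, plus strand): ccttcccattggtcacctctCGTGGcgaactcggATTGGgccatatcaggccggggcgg
ERO1B (chr1:236282163-236282208, minus strand): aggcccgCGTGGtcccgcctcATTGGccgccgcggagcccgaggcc
SERP1 (chr3:150546690-150546746, minus strand): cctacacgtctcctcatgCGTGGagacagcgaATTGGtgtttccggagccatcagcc
XBP1 (chr22:28800583-28800641, minus strand): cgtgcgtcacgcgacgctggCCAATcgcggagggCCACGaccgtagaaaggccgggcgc

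A shorter form, ATTGG, any base, then CCACG, was found in 3 of the 51 promoters (5.88%), against 15 of 27305 (0.0549%). It occurred in SDF2L1 and HERPUD1, shown here in the same way, and at 2 places in HYOU1. The motif TGACGTGG, which includes the reverse complement of CCACG, was present in DNAJC10, HYOU1 and SEC62 (5.88%, against 0.795% of all promoters), and in HYOU1 it overlaps a match of the short form. It is not particular to the list. Among the other lists described further on, it was in 7 of 19 vesicle export promoters (36.8%) and 2 of 19 of other degradation genes (10.5%). The remaining lists had 0% to 4.76%. CCACG alone was in 68.6% of the 51 promoters, against 37.9% of all. The motif TGATGNAA, a core of ATF4 binding sites, was present in HERPUD1 alone (1.96%, against 3.67%). A match describes the letters only, and a promoter without one may still be bound.
SDF2L1 (chr22:21642094-21642144, plus strand): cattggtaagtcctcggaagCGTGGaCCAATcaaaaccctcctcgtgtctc
HERPUD1 (chr16:56932005-56932055, plus strand): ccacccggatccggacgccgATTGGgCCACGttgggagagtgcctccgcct

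No gene of the list passed the test between resistant and parental cells. Of 54 genes with values, 53 averaged at least 1 FPKM over the 4 libraries and were tested, all with both group means at 1.63 FPKM or above. In limma with adjustment over all 10271 genes tested, 0 of 53 were called (smallest adjusted p = 0.141, for ERP29), where 0.0584% of all genes were (0.0487% higher and 0.00974% lower). At an unadjusted limma p under 0.05 there were 1 higher (CANX) and 3 lower (ERP29, ATF6B and MBTPS1), together 7.55% of the list, against 6.06% higher and 10.2% lower, together 16.2%, of all genes. Without resistant replicate 1 the counts were 4 higher and 16 lower, where 10.8% of all genes were higher and 24.6% lower. Without resistant replicate 2 they were 8 and 5, where 10.0% and 11.3% of all genes were. The groups did not overlap for 26 genes, with 11 higher (20.8%) and 15 lower (28.3%) in the resistant pair, against 19.1% and 31.8% of all genes. Either way the share was 49.1% in the list and 51.0% in all genes. After median-of-ratios scaling between libraries the split was 16 higher and 13 lower, and after rescaling to a common sum 8 higher and 17 lower. The share of all genes without overlap was not counted under these scalings, where the median over all genes was 0.01 and -0.12. These splits are therefore not a result about the list. As deposited, the median log2 fold change of the list was -0.05, beside -0.08 for all genes tested. With 2 libraries a group, the smallest p that exact permutation allows is 0.33. By role, 10 of 24 folding genes were lower without overlap (41.7%), and 6 of 13 translocation genes were higher without overlap (46.2%). Role medians were -0.17 for folding, 0.23 for translocation, -0.03 for degradation and -0.05 for sensors, and whether the roles differ was not tested. The list as a whole took 0.635% and 0.596% of FPKM in resistant libraries, against 0.694% and 0.677% in parental libraries. Mitochondrially encoded genes took 40.2% and 40.6% in resistant libraries, against 37.2% and 37.9% in parental libraries, and with those genes left out of the total the list took 1.06% and 1.00%, against 1.11% and 1.09%.

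**Figure D1:**
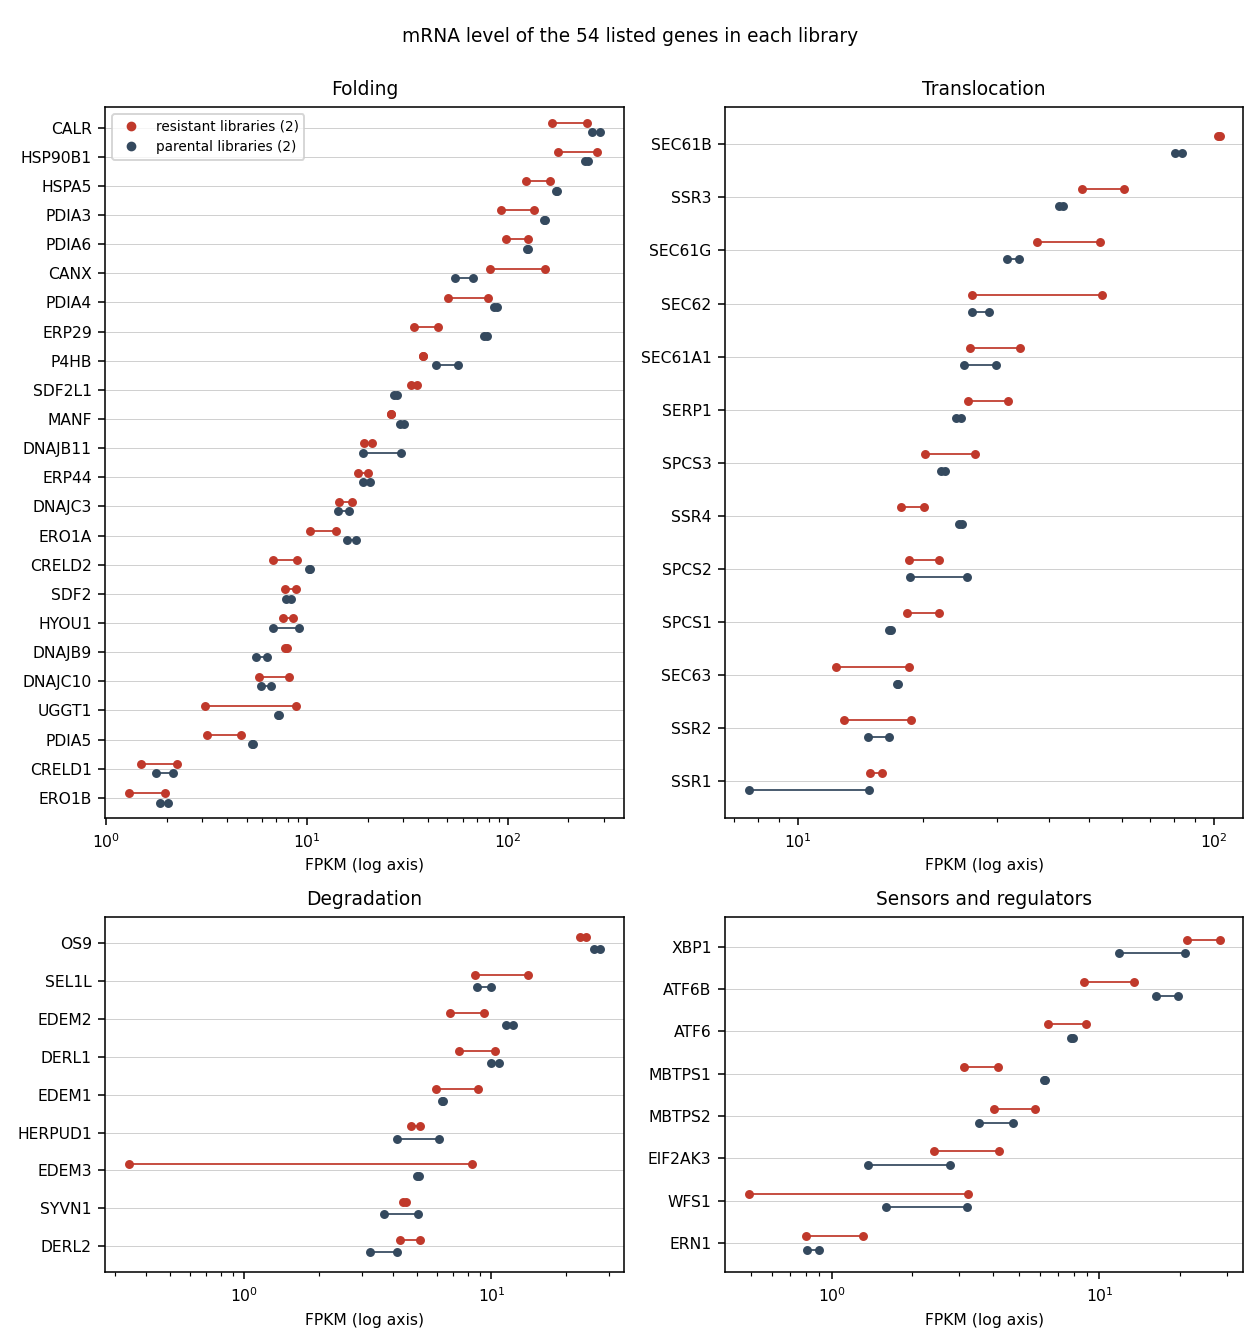
FPKM of each of the 54 genes with values (log axis), by role and ordered by mean level, with resistant libraries (red) above parental libraries (dark) and a line joining the libraries of a group. SEC61B at 102 and 103 FPKM in resistant libraries, against 83.5 and 80.3 FPKM in parental libraries, is clear of overlap, while EDEM3 spans 0.341 to 8.36 FPKM within the resistant group.

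**Figure D2:**
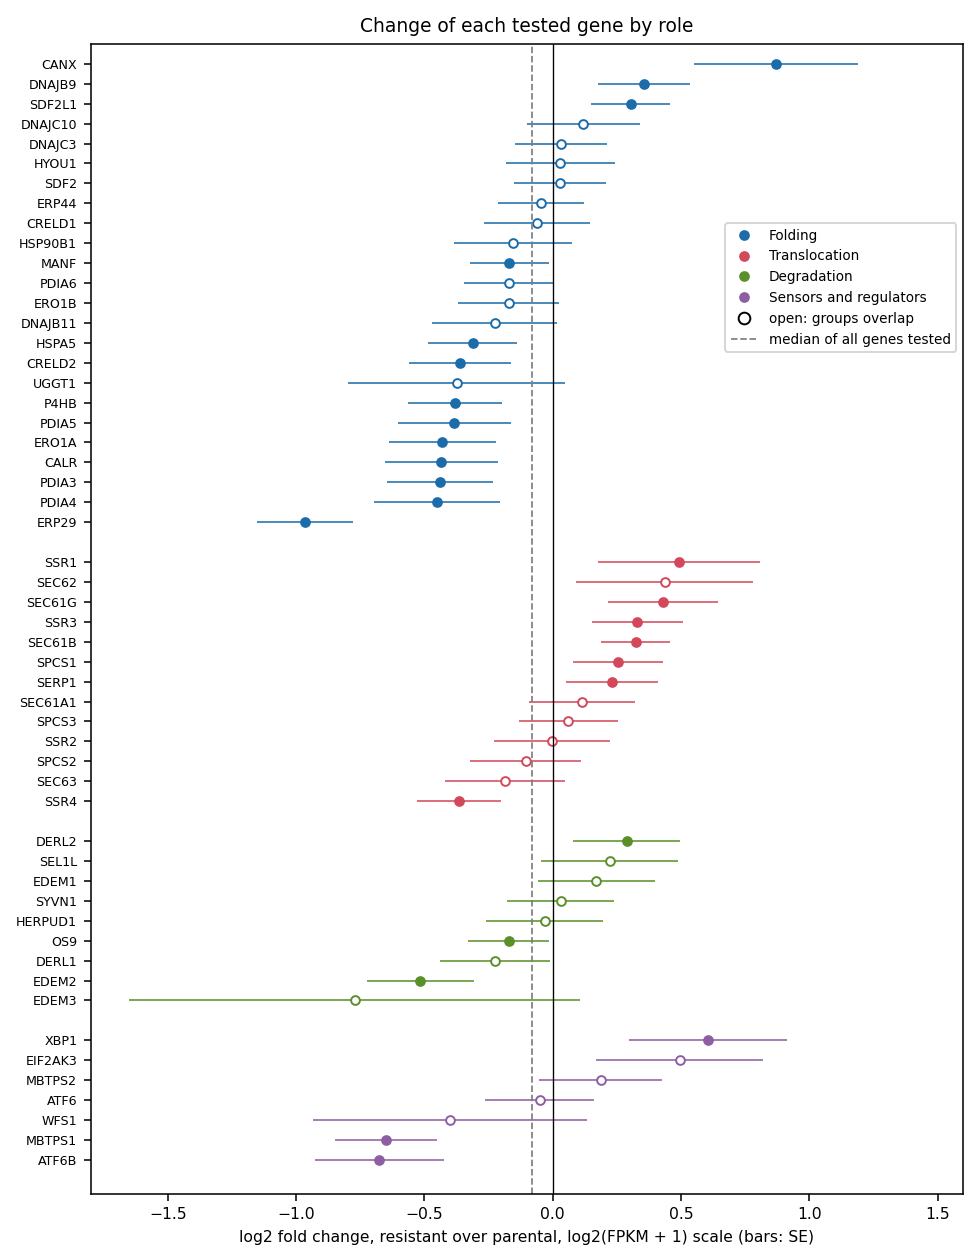
Log2 fold change of the 53 tested genes, resistant over parental, with its SE as a bar, by role. Filled points mark genes whose groups do not overlap, and the dashed line is the median of all genes tested, -0.08. Most folding genes lie left of the line, down to ERP29 at -0.96, and most translocation genes right of it.

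The chaperones of the lumen were among the most abundant mRNAs of the list. CALR, which encodes the calcium-binding lectin chaperone calreticulin, had 247 and 165 FPKM in resistant libraries, against 287 and 261 FPKM in parental libraries (log2 fold change -0.43 ± 0.22 SE, limma adjusted p = 0.389). Both resistant values lay below both parental values, with the wider gap between the resistant pair. HSP90B1, the HSP90 chaperone of the compartment, had 177 and 276 FPKM in resistant libraries, against 241 and 250 FPKM in parental libraries. The groups overlapped, with the highest and the lowest value both in resistant libraries. HSPA5, which encodes BiP, the chaperone that also holds the sensors inactive, had 161 and 123 FPKM in resistant libraries, against 173 and 176 FPKM in parental libraries (-0.31 ± 0.17 SE, limma adjusted p = 0.429). Its groups did not overlap. HYOU1, a chaperone and exchange factor of BiP, stood at 8.52 and 7.59 FPKM in resistant libraries, against 9.15 and 6.74 FPKM in parental libraries. HYOU1 values overlapped, at a level far below that of BiP.

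Calnexin, the membrane-bound partner of calreticulin, stood apart from the other folding genes. CANX had 81.3 and 152 FPKM in resistant libraries, against 54.2 and 67.0 FPKM in parental libraries (log2 fold change 0.87 ± 0.32 SE, unadjusted p = 0.0391 and adjusted p = 0.287 in limma). Both resistant values were above both parental values, and resistant replicate 2 was the highest. The ratio of CANX to CALR FPKM within a library was 0.328 and 0.917 in resistant libraries, against 0.189 and 0.257 in parental libraries. The ratio was higher in both resistant libraries, and the resistant ratios differed from each other by more than the groups did at their nearest. UGGT1, which re-glucosylates unfolded glycoproteins so that the lectins bind them again, had 8.78 and 3.11 FPKM in resistant libraries, against 7.24 and 7.20 FPKM in parental libraries. Its parental values enclosed almost no spread, and the resistant values lay on either side of them.

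Of 8 genes of the disulphide isomerase family, a grouping made after the values were seen, 0 were called, 5 were lower without overlap and 3 overlapped. That is 62.5% lower without overlap, against 31.8% of all genes, and 0.0584% of all genes were called. The 8 were PDIA3, PDIA4, PDIA5, PDIA6, P4HB, ERP29, ERP44 and DNAJC10. Of family genes outside the list, TMX1, TMX2, TMX3, TXNDC11 and TXNDC15 overlapped. TMX4 (log2 fold change 0.44) and TXNDC12 (0.11) were higher without overlap, and none of these was lower. The share of 62.5% therefore depends on which genes are grouped. ERP29, a thioredoxin-fold protein of the family that lacks the redox-active site, had 45.1 and 34.0 FPKM in resistant libraries, against 78.8 and 75.9 FPKM in parental libraries. Its mean was 39.5 ± 7.85 FPKM in resistant and 77.3 ± 1.99 FPKM in parental libraries (SD, n = 2 each), a log2 fold change of -0.96 ± 0.19 SE (unadjusted p = 0.00311 and adjusted p = 0.141 in limma). It had the lowest unadjusted p on the list, and its log2 fold change ran from -1.16 to -0.77 over all alternatives tried. PDIA3, which works with the lectins on glycoproteins, had 134 and 92.8 FPKM in resistant libraries, against 152 and 151 FPKM in parental libraries (-0.44 ± 0.21 SE). PDIA4, a larger isomerase, had 79.7 and 50.1 FPKM in resistant libraries, against 88.1 and 85.4 FPKM in parental libraries (-0.45 ± 0.25 SE). In both genes resistant replicate 2 was the lowest library and resistant replicate 1 was near the parental pair.

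P4HB, the classical protein disulphide isomerase and also a subunit of collagen prolyl hydroxylase, had 37.9 and 37.7 FPKM in resistant libraries, against 56.2 and 43.6 FPKM in parental libraries. PDIA5 had 4.69 and 3.19 FPKM in resistant libraries, against 5.34 and 5.38 FPKM in parental libraries. For both genes the groups did not overlap, and PDIA5 was less abundant than PDIA3, PDIA4, PDIA6 and P4HB. PDIA6, at 126 and 97.6 FPKM in resistant libraries, against 126 and 124 FPKM in parental libraries, and ERP44, which retains oxidases in the early secretory route, at 20.2 and 18.0 FPKM, against 18.9 and 20.6 FPKM, overlapped. ERO1A, the oxidase that recharges the isomerases and that is also known as a hypoxia-induced gene, had 14.0 and 10.4 FPKM in resistant libraries, against 17.5 and 15.8 FPKM in parental libraries (-0.43 ± 0.21 SE, limma adjusted p = 0.370). Its paralog ERO1B, at 1.96 and 1.30 FPKM in resistant libraries, against 2.04 and 1.85 FPKM in parental libraries, overlapped. The ratio of ERO1A to ERO1B was 7.16 and 7.96 in resistant libraries, against 8.57 and 8.53 in parental libraries, so ERO1A was the main oxidase mRNA in all 4.

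Cochaperones and small folding factors were split. DNAJB9, a J-domain protein that restrains IRE1 through BiP, had 7.96 and 7.79 FPKM in resistant libraries, against 5.55 and 6.34 FPKM in parental libraries (log2 fold change 0.36 ± 0.18 SE). SDF2L1, which works with the J-domain protein DNAJB11, had 35.3 and 32.9 FPKM in resistant libraries, against 27.9 and 27.0 FPKM in parental libraries (0.30 ± 0.15 SE, limma adjusted p = 0.391). These 2 and CANX were the folding genes that were higher without overlap. The paralog SDF2 showed 8.85 and 7.77 FPKM in resistant libraries, against 7.88 and 8.34 FPKM in parental libraries, and overlapped, as did DNAJB11, DNAJC3, DNAJC10 and CRELD1 (log2 fold changes from -0.23 to 0.12). CRELD2, an isomerase induced by stress of the compartment, had 8.94 and 6.79 FPKM in resistant libraries, against 10.4 and 10.2 FPKM in parental libraries. MANF, a secreted factor induced by the same stress, had 26.2 and 26.3 FPKM in resistant libraries, against 30.4 and 28.9 FPKM in parental libraries. Both were lower without overlap, MANF by a log2 fold change of only -0.17 ± 0.15 SE.

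The 8 genes with the stress element in their promoter, shown above, did not lean in 1 direction. CANX, XBP1 and SERP1 were higher without overlap and HSPA5, CALR and CRELD2 lower without overlap, while HSP90B1 and ERO1B overlapped. That is 37.5% higher and 37.5% lower, against 19.1% and 31.8% of all genes. Their log2 fold changes ran from -0.43 (CALR) to 0.87 (CANX), with a median of -0.16. Of the genes with the short form, SDF2L1 was higher without overlap, and HYOU1 and HERPUD1 overlapped.

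Of 13 translocation genes, 0 were called and 0 had an unadjusted limma p under 0.05, against 0.0584% and 16.2% of all genes. Without overlap, 6 were higher (46.2%, against 19.1% of all genes) and 1 lower (7.69%, against 31.8%), and 6 overlapped. Together 53.8% were without overlap, near the 51.0% of all genes. The median log2 fold change of these 13 genes, 0.23, was 0.09 without resistant replicate 1. SEC61B, the small beta subunit of the channel, had 102 and 103 FPKM in resistant libraries, against 83.5 and 80.3 FPKM in parental libraries (log2 fold change 0.32 ± 0.14 SE, unadjusted p = 0.0599 and adjusted p = 0.326 in limma). SEC61G, the gamma subunit, had 37.4 and 53.2 FPKM in resistant libraries, against 31.7 and 34.0 FPKM in parental libraries (0.43 ± 0.21 SE). The pore subunit SEC61A1 had 34.1 and 25.9 FPKM in resistant libraries, against 29.9 and 25.1 FPKM in parental libraries. So the small subunits were clear of overlap and the pore subunit was not. SEC62 and SEC63, which assist chains that enter after their synthesis, had 26.2 and 53.6 FPKM for SEC62 in resistant libraries, against 26.2 and 28.8 FPKM in parental libraries, and 12.3 and 18.5 FPKM for SEC63, against 17.4 and 17.3 FPKM. For both, resistant replicate 2 was the highest library, and the groups overlapped.

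The translocon-associated proteins, which sit beside the channel and help some signal peptides insert, went both ways. SSR3 had 60.8 and 48.1 FPKM in resistant libraries, against 43.3 and 42.4 FPKM in parental libraries (0.33 ± 0.18 SE). SSR4 had 17.7 and 20.1 FPKM in resistant libraries, against 24.8 and 24.4 FPKM in parental libraries (-0.36 ± 0.16 SE, limma adjusted p = 0.351). It was the only translocation gene lower without overlap, so subunits of 1 complex lay on opposite sides. SSR1 had 14.9 and 15.9 FPKM in resistant libraries, against 7.61 and 14.8 FPKM in parental libraries, and parental replicate 2 was almost level with the resistant pair. SSR2 overlapped, at a log2 fold change of -0.00 ± 0.23 SE. SPCS1, a subunit of the signal peptidase, had 21.8 and 18.3 FPKM in resistant libraries, against 16.5 and 16.7 FPKM in parental libraries, while SPCS2 and SPCS3 overlapped. SERP1, a small protein that binds the channel under stress, had 32.0 and 25.6 FPKM in resistant libraries, against 23.9 and 24.6 FPKM in parental libraries (0.23 ± 0.18 SE). For SPCS1 and SERP1 the nearest libraries of the groups were close, and neither approached the threshold (limma adjusted p = 0.508 and 0.557).

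Oligosaccharyltransferase, the enzyme beside the channel that attaches sugar chains, had log2 fold changes from -0.66 to 1.23, while the 3 Sec61 subunits had 0.11 to 0.43, a difference that was not tested. All 12 of its genes were tested and 0 were called. At an unadjusted limma p under 0.05 there were 5 higher and 2 lower, together 58.3%. Of all genes, 6.06% were higher and 10.2% lower, together 16.2%. OST4, a very small subunit, had 297 and 434 FPKM in resistant libraries, against 166 and 192 FPKM in parental libraries (log2 fold change 1.01 ± 0.22 SE, limma adjusted p = 0.161). KRTCAP2 had 25.7 and 40.0 FPKM in resistant libraries, against 11.8 and 14.4 FPKM in parental libraries (1.23 ± 0.26 SE, limma adjusted p = 0.158). DAD1 had 183 and 205 FPKM in resistant libraries, against 126 and 96.2 FPKM in parental libraries (0.81 ± 0.18 SE, limma adjusted p = 0.166). OSTC and TMEM258 were the other 2 higher genes, so the 5 were all small subunits, a grouping made after the values were seen. The 2 lower genes were STT3A and DDOST, with DDOST at -0.45 ± 0.16 SE. TUSC3, at -0.42 ± 0.19 SE, was also lower without overlap. STT3A, the catalytic subunit that acts on chains entering the channel, had 12.3 and 11.7 FPKM in resistant libraries, against 19.9 and 19.2 FPKM in parental libraries (-0.66 ± 0.16 SE, limma adjusted p = 0.185). The other catalytic subunit, STT3B, overlapped at 55.1 and 43.3 FPKM in resistant libraries, against 46.5 and 47.8 FPKM in parental libraries, and the ratio of STT3A to STT3B was 0.223 and 0.270 in resistant libraries, against 0.428 and 0.401 in parental libraries.

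The log2 fold changes were also set beside transcript length. Over all genes tested, the median log2 fold change was 0.07 for the 927 genes with a median annotated transcript under 1 kb, -0.09 for 2786 genes of 1 to 2 kb, -0.12 for 4089 genes of 2 to 4 kb and -0.03 for 2411 longer genes. Within the list, the 9 genes under 1 kb had a median of 0.29, the 15 of 1 to 2 kb one of -0.15, the 17 of 2 to 4 kb one of -0.17 and the 12 longer ones one of -0.05. SEC61B, SEC61G, OST4, KRTCAP2 and DAD1 have median transcripts of 566, 487, 559, 552 and 501 bases, and SEC61A1 and STT3A of 3238 and 3287 bases. SSR4, at 694 bases, and DERL1, at 918 bases, were short with log2 fold changes of -0.36 and -0.22. SSR2, at 872 bases, had one of -0.00. TMEM258, among the higher small subunits at 0.65, has a median transcript of 1133 bases. The part of transcript length in these differences was not tested.

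**Figure D3:**
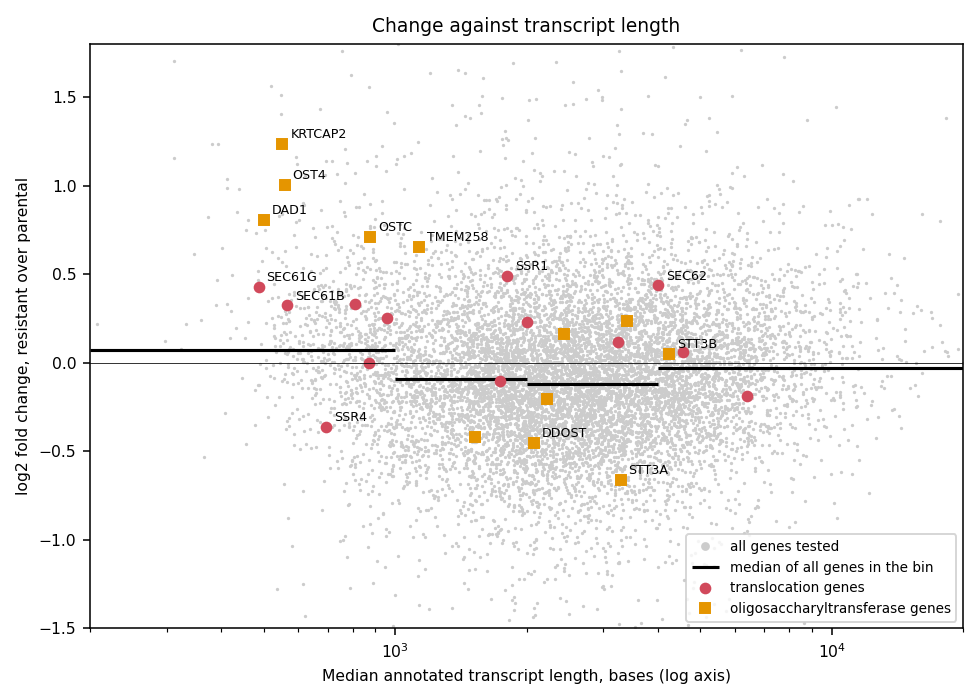
Log2 fold change, resistant over parental, against the median annotated transcript length in bases (log axis) for all genes tested (grey), the 13 translocation genes (red circles) and the 12 oligosaccharyltransferase genes (orange squares). Black lines give the median of all genes in each length bin, 0.07 under 1 kb and -0.12 at 2 to 4 kb. KRTCAP2 at 1.23 and OST4 at 1.01 lie far above the line of their bin and STT3A at -0.66 below its own. Genes beyond the axes are not shown.

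Of the 9 degradation genes with values, 6 overlapped between the groups, 1 was higher and 2 were lower without overlap (33.3% without overlap, against 51.0% of all genes). EDEM2, a lectin-like protein that starts mannose trimming of misfolded glycoproteins, had 9.29 and 6.81 FPKM in resistant libraries, against 12.2 and 11.5 FPKM in parental libraries (log2 fold change -0.52 ± 0.21 SE, unadjusted p = 0.0534 and adjusted p = 0.316 in limma). Its paralog EDEM1 had 8.78 and 5.95 FPKM in resistant libraries, against 6.38 and 6.28 FPKM in parental libraries, and overlapped. EDEM3 had 8.36 and 0.341 FPKM in resistant libraries, against 5.0 and 5.10 FPKM in parental libraries. The EDEM3 gap between resistant replicates was 2.80 on the log2(FPKM + 1) scale, and only 21 of 10271 genes (0.204%) had a larger one, and resistant replicate 1 alone was above the parental pair. Its log2 fold change was -0.77 ± 0.88 SE. OS9, a lectin that delivers clients to the ligase, was the most abundant of the role, at 24.2 and 22.9 FPKM in resistant libraries, against 27.5 and 25.9 FPKM in parental libraries, lower without overlap by -0.17 ± 0.16 SE. DERL2, a channel-forming rhomboid-like protein, had 4.26 and 5.16 FPKM in resistant libraries, against 4.16 and 3.21 FPKM in parental libraries, higher without overlap. The ligase SYVN1, its adaptor SEL1L, the stress-induced HERPUD1 and DERL1 overlapped, with log2 fold changes from -0.22 to 0.22. SEL1L had 14.1 and 8.57 FPKM in resistant libraries, against 8.71 and 9.96 FPKM in parental libraries, and resistant replicate 1 stood above the other 3.

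Among the sensors and their regulators, MBTPS1 and ATF6B had lower values in resistant cells, short of the adjusted threshold. MBTPS1, the Golgi protease that makes the first cut in ATF6 and in sterol regulatory proteins, had 4.17 and 3.13 FPKM in resistant libraries, against 6.27 and 6.22 FPKM in parental libraries (log2 fold change -0.65 ± 0.20 SE, unadjusted p = 0.0209 and adjusted p = 0.240 in limma). ATF6B, a paralog of ATF6, had 13.4 and 8.73 FPKM in resistant libraries, against 19.7 and 16.2 FPKM in parental libraries (-0.67 ± 0.25 SE, adjusted p = 0.291). Neither gene overlapped, and resistant replicate 2 was the lowest library for both. ATF6 had 8.91 and 6.41 FPKM in resistant libraries, against 7.82 and 7.93 FPKM in parental libraries, and MBTPS2, which makes the second cut, had 5.72 and 4.05 FPKM, against 3.55 and 4.75 FPKM. The ratio of ATF6 to ATF6B was 0.665 and 0.734 in resistant libraries, against 0.396 and 0.489 in parental libraries, higher in both resistant libraries.

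XBP1, the factor that IRE1 activates by splicing its mRNA, had 21.3 and 28.1 FPKM in resistant libraries, against 20.9 and 11.8 FPKM in parental libraries (0.60 ± 0.31 SE, limma adjusted p = 0.393). The groups only just missed each other, since parental replicate 1 was almost level with resistant replicate 1, and its log2 fold change ran from 0.22 to 0.99 over the alternatives. Gene-level FPKM does not separate spliced from unspliced XBP1. ERN1, the sensor that splices it, had 1.31 and 0.805 FPKM in resistant libraries, against 0.806 and 0.894 FPKM in parental libraries, averaged below 1 FPKM and was not tested. EIF2AK3, which encodes PERK, had 4.20 and 2.41 FPKM in resistant libraries, against 2.77 and 1.37 FPKM in parental libraries (0.49 ± 0.32 SE), and overlapped. WFS1, a membrane protein that restrains ATF6, had 3.22 and 0.490 FPKM in resistant libraries, against 3.20 and 1.60 FPKM in parental libraries, with wide spread in both groups.

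Much of the variation in the list lay between the resistant replicates. Resistant replicate 2 was below resistant replicate 1 in 41 of 53 genes (77.4%), and in 66.1% of all genes. Against the parental mean, resistant replicate 1 had a median of 0.10 over the list and resistant replicate 2 one of -0.13 on the log2(FPKM + 1) scale, beside -0.01 and -0.16 for all genes tested. Folding genes had medians of -0.05 and -0.32 in the same order of replicates, translocation genes 0.25 and 0.09, degradation genes 0.05 and -0.11, and sensors 0.35 and -0.26. So the median of folding genes was lower mainly in resistant replicate 2, where the median of all genes was lower too. HSP90B1 was lower in resistant replicate 1 only, and P4HB and MANF were lower to a like degree in both replicates. The median of translocation genes was above 0 in both resistant replicates. The median gap between replicates in the list was 0.38 for resistant and 0.09 for parental libraries, beside 0.29 and 0.13 over all genes. WFS1, UGGT1 and SEC62 followed EDEM3 among the genes of the list, with resistant replicate 1 minus resistant replicate 2 at 1.50, 1.25 and -1.0. CANX, at -0.89, was higher in resistant replicate 2, against the general tendency.

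**Figure D4:**
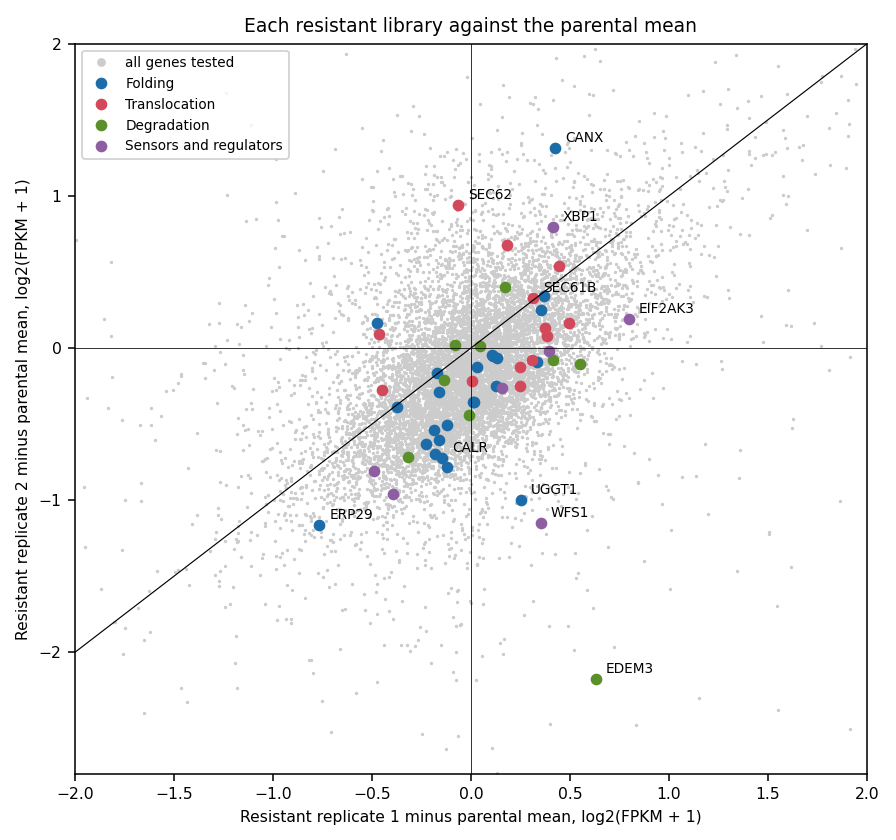
Log2(FPKM + 1) of resistant replicate 1 (horizontal) and resistant replicate 2 (vertical), each minus the parental mean, for all genes tested (grey) and the 53 tested genes of the list by role. The diagonal marks equal differences. Most of the list lies below the diagonal, with EDEM3 farthest, and CANX and SEC62 lie above it. Genes beyond the axes are not shown.

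Other genes of the compartment, from 9 lists with 162 tested genes, also held no call (smallest limma adjusted p = 0.0788, for EMC10). At an unadjusted limma p under 0.05 there were 10 higher and 11 lower (13.0%, against 16.2% of all genes). Without overlap, 30 were higher and 41 lower (18.5% and 25.3%, against 19.1% and 31.8% of all genes). EMC10, a subunit of the complex that inserts membrane proteins, had 4.81 and 5.42 FPKM in resistant libraries, against 1.44 and 1.29 FPKM in parental libraries (log2 fold change 1.37 ± 0.18 SE). TRAM2, a translocation-associated membrane protein linked to collagen synthesis, had 15.0 and 12.2 FPKM in resistant libraries, against 5.75 and 5.68 FPKM in parental libraries (1.11 ± 0.19 SE, limma adjusted p = 0.122). These were the widest differences among the 25 tested genes of signal recognition and insertion. In that list 3 were higher and 0 lower at an unadjusted limma p under 0.05 (12%, against 16.2% of all genes, 6.06% higher). SRP54, the GTPase of the signal recognition particle, had 16.2 and 8.36 FPKM in resistant libraries, against 17.0 and 18.8 FPKM in parental libraries (-0.57 ± 0.32 SE), lower without overlap.

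Targets of the PERK arm had 0 higher and 1 lower of 15 at an unadjusted limma p under 0.05 (6.67%, against 16.2% of all genes, 10.2% lower). Their median log2 fold change was 0.03. The 1 was VLDLR, a lipoprotein receptor, at 9.75 and 6.87 FPKM in resistant libraries, against 17.1 and 18.2 FPKM in parental libraries (-1.02 ± 0.22 SE, limma adjusted p = 0.158). ATF4, the central factor of the arm, had 102 and 77.5 FPKM in resistant libraries, against 120 and 107 FPKM in parental libraries, and its target DDIT3 had 8.90 and 8.31 FPKM, against 10.3 and 10.8 FPKM. Both were lower without overlap, by -0.35 ± 0.19 SE and -0.26 ± 0.17 SE, short of the threshold. CEBPG, a partner of ATF4, had 7.73 and 5.02 FPKM in resistant libraries, against 9.37 and 9.16 FPKM in parental libraries (-0.50 ± 0.24 SE). NUPR1, a stress-induced nuclear protein, had 7.92 and 6.14 FPKM in resistant libraries, against 4.98 and 4.79 FPKM in parental libraries (0.44 ± 0.20 SE). So CEBPG was lower and NUPR1 higher, each without overlap. CHAC1 (0.33 ± 0.22 SE) and CEBPB (0.29 ± 0.19 SE) were also higher without overlap. Of the 15 genes, 3 were higher and 4 lower without overlap, and 8 overlapped. Together 46.7% were without overlap, against 51.0% of all genes, so the list did not stand out from all genes in this share.

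Collagen-modifying enzymes had 0 higher and 3 lower of 8 tested at an unadjusted limma p under 0.05 (37.5%, against 16.2% of all genes, 10.2% lower). PLOD1, a lysyl hydroxylase, had 13.1 and 9.07 FPKM in resistant libraries, against 23.1 and 19.3 FPKM in parental libraries (-0.89 ± 0.23 SE, limma adjusted p = 0.198). The prolyl hydroxylase subunit P4HA2 had 3.36 and 2.06 FPKM in resistant libraries, against 4.49 and 5.02 FPKM in parental libraries (-0.66 ± 0.24 SE). The collagen chaperone SERPINH1 had 17.0 and 12.9 FPKM in resistant libraries, against 21.8 and 23.2 FPKM in parental libraries (-0.58 ± 0.20 SE). All 3 were lower without overlap, with resistant replicate 2 the lowest library.

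Other oxidoreductases and folding enzymes had 1 higher and 3 lower of 29 at an unadjusted limma p under 0.05 (13.8%, against 16.2% of all genes). QSOX2, a sulphydryl oxidase, had 7.96 and 5.81 FPKM in resistant libraries, against 14.3 and 10.9 FPKM in parental libraries (-0.79 ± 0.23 SE). PRKCSH, the regulatory subunit of glucosidase II, which trims glycans before the lectins bind, had 46.8 and 47.2 FPKM in resistant libraries, against 68.3 and 70.9 FPKM in parental libraries (-0.55 ± 0.14 SE, limma adjusted p = 0.196). CNPY3, a cochaperone of HSP90B1 for Toll-like receptors, had 44.5 and 37.1 FPKM in resistant libraries, against 59.4 and 59.9 FPKM in parental libraries (-0.54 ± 0.16 SE). The 3 were the lower ones, and none overlapped.

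Other degradation genes had 1 higher and 1 lower of 28 at that threshold (7.14%, against 16.2% of all genes). FAM8A1, a partner of the ligase SYVN1, had 7.62 and 4.54 FPKM in resistant libraries, against 9.81 and 10.4 FPKM in parental libraries (-0.69 ± 0.26 SE). TMUB1, a membrane protein with a ubiquitin-like domain, had 16.8 and 21.3 FPKM in resistant libraries, against 13.1 and 11.8 FPKM in parental libraries (0.57 ± 0.19 SE). Its paralog TMUB2, at 3.53 and 3.61 FPKM in resistant libraries, against 1.58 and 2.89 FPKM in parental libraries (0.53 ± 0.25 SE), was also higher without overlap, with wide spread between parental libraries.

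Calcium genes of the compartment had 0 higher and 1 lower of 11 at that threshold (9.09%, against 16.2% of all genes, 10.2% lower). RCN2, a calcium-binding protein of the lumen, was that gene, at 10.5 and 8.32 FPKM in resistant libraries, against 13.3 and 13.6 FPKM in parental libraries (-0.48 ± 0.19 SE). ITPR3, a calcium release channel, had 8.66 and 4.82 FPKM in resistant libraries, against 10.7 and 9.29 FPKM in parental libraries (-0.55 ± 0.29 SE). TMBIM6, a membrane protein that limits cell death under stress of the compartment, had 93.3 and 100 FPKM in resistant libraries, against 77.9 and 28.6 FPKM in parental libraries (1.02 ± 0.46 SE). Parental replicate 2 of TMBIM6 stood far below the other 3 libraries.

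Shaping and ER-phagy genes had 0 higher and 0 lower of 12, and vesicle export genes 0 and 0 of 22, at an unadjusted limma p under 0.05 (0%, against 16.2% of all genes). LNPK, which stabilizes tubule junctions, had 7.70 and 5.55 FPKM in resistant libraries, against 8.37 and 10.1 FPKM in parental libraries (-0.43 ± 0.22 SE). TEX264, a receptor for ER-phagy, had 4.64 and 4.11 FPKM in resistant libraries, against 3.33 and 2.76 FPKM in parental libraries (0.41 ± 0.19 SE). RTN4, a reticulon that shapes tubules, had 35.0 and 43.4 FPKM in resistant libraries, against 32.4 and 27.8 FPKM in parental libraries (0.37 ± 0.19 SE). The groups of these 3 did not overlap. SEC13, of the outer coat of export vesicles, had 6.88 and 4.30 FPKM in resistant libraries, against 7.22 and 9.68 FPKM in parental libraries (-0.54 ± 0.27 SE). The cargo-binding coat subunit SEC24C had 5.92 and 7.10 FPKM in resistant libraries, against 8.14 and 8.13 FPKM in parental libraries (-0.29 ± 0.18 SE). Its paralog SEC24D had 2.68 and 1.98 FPKM in resistant libraries, against 1.57 and 1.92 FPKM in parental libraries (0.28 ± 0.20 SE). SEC24C was lower and SEC24D higher without overlap, the second by a narrow margin.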

How the data were processed

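RNA from 2 resistant and 2 parental 92.1 libraries was analysed. The deposited values are FPKM, per the file headers, with 1 value per gene and library. Libraries were stranded, made by a dUTP method, per the labels' protocols. The build was hg38, per the submitters' processing notes. The labels name both poly(A) selection and rRNA removal. Which program aligned and counted the reads, with which annotation and whether by strand, was not given in the sources used here. No step of whole reads could be recovered from low values (at most 5 genes shared a window of 1% width), so depth is unknown and no counting interval was drawn.

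Identifiers were matched to current symbols (11575 of 11650), and exon overlaps and transcript lengths came from GENCODE release 29 on GRCh38. Of the identifiers, 11551 carry a suffix of annotation lifted between builds, so no gene coordinates are printed from it. A floor of about 0.5 FPKM on the larger group mean seems to apply in the files (smallest 0.5009). Of the 55 genes, 8 share exonic bases with another gene on the same strand and 29 with one on the other strand, and 7 have pseudogenes named after them (PDIA3, ERP29, SEC63, SSR1, SSR4, SPCS2 and XBP1), so their levels are less certain.

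Values were tested as log2(FPKM + 1), which understates changes of low genes, after leaving out genes averaging below 1 FPKM. The two-sided limma test (version 3.58.1, R 4.3.3) used a variance trend, and Benjamini-Hochberg adjustment at 0.05 ran over 10271 genes. Scripts were tested on simulated data. Alternatives were another pseudocount (0.1), no filter, a minimum mean of 5 FPKM, 3 other scalings, the replicate number as a block, and each library left out in turn. The members, lists and roles were chosen with earlier results of these data known. Values are given for genes past the threshold, for up to 6 genes a role with the widest differences among those whose groups do not overlap, for the 2 most abundant of each role, for the sensors, for genes not tested, and for up to 3 such genes of each other list. Other genes were named after their values were seen. Sequences are from RefSeq on GRCh38.p14. Figures were drawn in Python 3.11.15 with matplotlib 3.10.9.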

Additional observations from a re-analysis of the deposited data

How the results depend on the processing

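No gene of the list was called under any of the 11 alternatives, where the smallest limma adjusted p of a member lay between 0.0586 (without resistant replicate 1) and 0.534 (without parental replicate 1). Of the 26 genes whose groups did not overlap, 0 changed sign under the 3 scalings, and the other alternatives cannot change it. Of the other genes, up to 5 changed sign under a scaling and up to 12 when a library was left out. With median-of-ratios scaling, 4 members were higher and 4 lower at an unadjusted limma p under 0.05, where 8.92% and 8.63% of all genes were. The median of all genes was then 0.01, against -0.08 as deposited. With quantile normalization, 3 members were higher and 2 lower, where 8.30% and 9.26% of all genes were. Over all genes 3 were called higher under each of these scalings, and 3 with a pseudocount of 0.1, against 5. Of the members whose groups do not overlap, median-of-ratios scaling gave 16 higher and 13 lower, quantile normalization gave 14 and 16, and rescaling to a common sum gave 8 and 17, against 11 and 15. The share of all genes without overlap was not counted under these scalings.

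Leaving out each library in turn gave 0 to 19 genes called higher and 0 to 13 called lower over all genes, with 0 higher without either resistant library and 17 and 19 higher without parental replicate 1 and 2. It gave 1 to 8 members higher and 1 to 16 lower at an unadjusted p under 0.05, with 4 higher and 16 lower without resistant replicate 1 (10.8% and 24.6% of all genes), 8 and 5 without resistant replicate 2 (10.0% and 11.3%), 1 and 1 without parental replicate 1 (3.53% and 3.27%), and 2 and 1 without parental replicate 2 (3.23% and 4.51%). Members without overlap ran from 34 to 45 in all, 14 to 27 higher and 17 to 31 lower, since fewer libraries overlap less often. The share of all genes without overlap was not counted in these fits. The list's median ran from -0.15 to 0.10, that of folding genes from -0.32 to -0.05, of translocation genes from 0.09 to 0.25, of degradation genes from -0.18 to 0.13, and of sensors from -0.26 to 0.35. The median over all genes ran from -0.16 to -0.01. In these fits the lone library of a group is assumed to vary like the others.

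The replicate numbers are shared by the groups, and the titles give only a number. The gap between resistant replicates and the gap between parental replicates correlated at -0.0709 across genes. With 2 libraries a group, that value cannot show whether same-numbered libraries belong together. With the replicate number as a block, limma called 4 genes higher and 1 lower over all genes and 0 members, and changed no call of a member. Depth is unknown, which limits what can be said of genes near 1 FPKM such as ERN1.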

Other observations

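The stress element found upstream of SERP1 lies at chr3:150546710-150546728 (GRCh38.p14) and is also within the promoter window of EIF2A, its neighbour on the other strand, which encodes a translation initiation factor. EIF2A had 22.0 and 14.4 FPKM in resistant libraries, against 24.2 and 31.7 FPKM in parental libraries (log2 fold change -0.61 ± 0.26 SE, limma adjusted p = 0.334), lower without overlap, where SERP1 was higher without overlap. The ratio of EIF2A to SERP1 FPKM was 0.688 and 0.562 in resistant libraries, against 1.01 and 1.29 in parental libraries.

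The element upstream of CRELD2, at chr22:49918554-49918572, is in the same way within the promoter window of ALG12, a mannosyltransferase that builds the glycan precursor. ALG12 had 2.67 and 1.41 FPKM in resistant libraries, against 2.41 and 2.07 FPKM in parental libraries, and overlapped, where CRELD2 was lower without overlap. The pairs overlap in their annotated exons on opposite strands, and use of strand in the counting is unknown, so the division of reads between neighbours is uncertain. These genes were chosen after their values and sequences were seen.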
